A study of Mus musculus with 35 samples.

Results

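*Ddit4l*, *Tmprss6*, *Il2rb* and *Cpne9* were 4 of the 22099 genes quantified by RNAseq in the mouse striatum. They were chosen by the measured difference between genotypes, since their transcripts showed some of the largest reductions in *Htt* Q111/+ mice under every treatment of the study. That difference is therefore described here without a test. Tested were their response to treatment, their covariation among mice of one genotype, their chromosomal neighbours and the genes that work with their products. Of these, the treatment response overlaps with the choice, since a gene restored by *Htt* ASO in *Htt* Q111/+ mice was unlikely to be chosen. All 4 were among the 17639 genes kept after a filter on low counts.

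The 4 gene products act in unrelated places. *Ddit4l* (also called REDD2) is a stress-inducible inhibitor of mTORC1, the kinase complex that couples nutrients and growth factors to protein synthesis. *Tmprss6* encodes matriptase-2, a membrane serine protease best known in the liver, where it cleaves the BMP co-receptor hemojuvelin and so holds down the iron hormone hepcidin. *Il2rb* encodes the beta chain shared by the receptors for interleukin-2 and interleukin-15, which signal through Jak1, Jak3 and Stat5 in lymphocytes. *Cpne9* encodes a copine, one of a family of proteins that bind membrane phospholipids when calcium rises. Most neurons of the striatum are medium spiny projection neurons, and they are the cells known to lose transcripts early in Huntington's disease models.

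The samples were hemistriata of 35 female mice on a C57BL/6J background, 299 to 304 days old, with 1 library per mouse. The *Htt* Q111/+ mouse is a knock-in, in which 1 of the mouse's own *Htt* alleles carries an expanded CAG tract and is driven by the endogenous promoter, and *Htt* +/+ littermates served as the wild types. Mice of both genotypes were injected weekly into the peritoneum from 2 to 10 months of age with 50 mg per kg of a pan-*Htt* antisense oligonucleotide (*Htt* ASO), with 50 mg per kg of an off-target control ASO, or with 4 uL per g of saline. This gave 6 saline, 5 control ASO and 6 *Htt* ASO *Htt* +/+ mice, and 6 *Htt* Q111/+ mice in each of the 3 treatments. ASOs given by this route reach peripheral organs such as the liver and enter the brain poorly.

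The libraries held 32200158 to 38641924 expected counts, with a median of 35538941. Levels are given as CPM, the count relative to library size after scaling by the trimmed mean of M-values (TMM). Scaling factors were 0.971 to 1.003 for the *Htt* +/+ and 0.993 to 1.03 for the *Htt* Q111/+ libraries. The targeted gene, *Htt* (listed as *Hdh*), spanned 66.6 to 104 CPM in *Htt* +/+ mice and 60.9 to 93.1 CPM in *Htt* Q111/+ mice. In striatum it was not called for *Htt* ASO against control ASO (log2 difference -0.077, SE 0.068, adjusted p = 0.967 with limma) or against saline (-0.12, SE 0.0663, adjusted p = 0.611), so that it offers no check of the treatment labels in this tissue. The sample titles carry an L number, read here as the sequencing lane, which no label states. All 6 libraries of lane 7 came from *Htt* Q111/+ mice. One *Htt* +/+ control ASO library stood apart by its choroid plexus transcripts, with *Ttr* at 1457 CPM against a median of 29.4 CPM over all mice. Its values for 3 of the 4 genes lay inside the range of the other *Htt* +/+ mice, and for *Il2rb* it was the lowest of them, at 1.12 CPM. The striatal identity of the tissue was clear from *Penk1*, *Ppp1r1b* and *Pde10a*, at means of 1213, 1418 and 1780 CPM.

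Promoter sequence could be read for *Ddit4l* and *Cpne9*, from RefSeq on GRCm38.p6, and is shown because genes that fall together invite a look at their start sites. Each run holds the 250 bases before and the 50 bases after the annotated start, with capitals marking matches to the motifs searched. The *Ddit4l* promoter lies at chr3:137623422-137623721 on the plus strand, and the *Cpne9* promoter at chr6:113282057-113282356, also on the plus strand. GENCODE lists *Ddit4l* at chr3:137621612-137628333, so this RefSeq window lies inside that span, downstream of the GENCODE gene start. For *Cpne9* both annotations give the same start. Which *Ddit4l* start is used in striatum was not tested.
Ddit4l: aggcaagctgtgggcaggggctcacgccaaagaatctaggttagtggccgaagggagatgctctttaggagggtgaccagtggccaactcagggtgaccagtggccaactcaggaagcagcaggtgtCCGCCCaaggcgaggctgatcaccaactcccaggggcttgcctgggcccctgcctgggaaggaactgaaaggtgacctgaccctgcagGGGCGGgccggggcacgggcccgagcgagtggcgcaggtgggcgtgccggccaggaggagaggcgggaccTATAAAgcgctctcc
Cpne9: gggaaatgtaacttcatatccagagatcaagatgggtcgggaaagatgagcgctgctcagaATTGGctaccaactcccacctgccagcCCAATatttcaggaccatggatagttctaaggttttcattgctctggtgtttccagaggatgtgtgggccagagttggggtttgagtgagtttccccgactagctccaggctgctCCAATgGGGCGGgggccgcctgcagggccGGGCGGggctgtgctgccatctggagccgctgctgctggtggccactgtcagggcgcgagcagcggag
Both strands were searched, and a match describes letters only. GGGCGG, the core of an SP1 site, occurred 2 times in each promoter, and 35.7% of 32851 mouse promoters of the same length hold it. The CCAAT box occurred 3 times in *Cpne9* and was absent from the *Ddit4l* window, and 37.4% of promoters hold it. The TATA box, searched as TATAAA, occurred 1 time in *Ddit4l*, starting 36 bases into the transcribed side, and is held by 13.6%. Not matched in either window were TGACGTCA, the cAMP response element (1.8% of promoters), and its core TGACG, which every such element contains (20.8%). Also unmatched were the EGR site GCGTGGGCG (0.6%), the E-box CACGTG (7.2%) and the core of the neuron-restrictive element, CAGCACC (7.1%). No matches overlapped. GC content was 65.7% for *Ddit4l* and 58.7% for *Cpne9* (median of all promoters 52.7%), with 14 and 11 CpG dinucleotides against a median of 7.

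*Ddit4l* was the most abundant of the 4 and the one with the widest separation between genotypes. In *Htt* +/+ mice the lowest, median and highest levels were 32.5, 38.9 and 43.5 CPM with saline and 36.6, 39.02 and 40.5 CPM with *Htt* ASO, and the 5 control ASO mice had 38.8, 39.5, 42.7, 34.4 and 37.8 CPM. In *Htt* Q111/+ mice they were 10.3, 12.5 and 13.8 CPM with saline, 9.09, 11.9 and 14.0 CPM with control ASO, and 10.1, 11.5 and 13.3 CPM with *Htt* ASO. Every *Htt* Q111/+ mouse was below every *Htt* +/+ mouse, and the lowest *Htt* +/+ value was 2.32 times the highest *Htt* Q111/+ value. The means over treatments were 38.7 ± 2.77 CPM (SD, n = 17) and 11.9 ± 1.45 CPM (SD, n = 18). On the log2 scale the genotype difference was -1.65 (SE 0.0826) with saline, -1.72 (SE 0.0868) with control ASO and -1.74 (SE 0.0839) with *Htt* ASO. *Htt* Q111/+ mice thus kept between 30.0% and 31.8% of the wild-type level in the 3 treatments.

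*Tmprss6* was expressed at a low level in striatum. In *Htt* +/+ mice the lowest, median and highest levels were 2.38, 3.50 and 3.66 CPM with saline and 2.60, 2.67 and 3.37 CPM with *Htt* ASO, and the 5 control ASO mice had 2.32, 3.36, 2.42, 3.57 and 2.05 CPM. The *Htt* Q111/+ values were 0.585, 1.15 and 1.43 CPM with saline, 0.345, 0.879 and 1.14 CPM with control ASO, and 0.496, 0.642 and 0.948 CPM with *Htt* ASO. The genotypes did not overlap, but the gap was narrow, the lowest *Htt* +/+ value being 1.43 times the highest *Htt* Q111/+ value. The 5 control ASO *Htt* +/+ mice fell into a pair near 3.5 CPM and a trio near 2.3 CPM. The means were 2.98 ± 0.539 CPM (SD, n = 17) and 0.848 ± 0.298 CPM (SD, n = 18). The log2 difference between genotypes was -1.71 (SE 0.204) with saline, -1.77 (SE 0.231) with control ASO and -2.11 (SE 0.235) with *Htt* ASO.

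*Il2rb* was the rarest of the 4 transcripts, resting on 40 to 74 counts per *Htt* +/+ mouse and 10 to 27 per *Htt* Q111/+ mouse. In *Htt* +/+ mice the lowest, median and highest levels were 1.23, 1.40 and 2.15 CPM with saline and 1.27, 1.64 and 1.89 CPM with *Htt* ASO, and the 5 control ASO mice had 1.12, 1.44, 1.38, 1.73 and 1.84 CPM. The corresponding *Htt* Q111/+ values were 0.426, 0.487 and 0.724 CPM with saline, 0.279, 0.452 and 0.637 CPM with control ASO, and 0.389, 0.545 and 0.756 CPM with *Htt* ASO. Again no *Htt* Q111/+ mouse reached the *Htt* +/+ range, and the lowest *Htt* +/+ value was 1.48 times the highest *Htt* Q111/+ value. The means were 1.55 ± 0.282 CPM (SD, n = 17) and 0.512 ± 0.132 CPM (SD, n = 18). The log2 difference was -1.51 (SE 0.189) with saline, -1.77 (SE 0.204) with control ASO and -1.503 (SE 0.183) with *Htt* ASO.

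*Cpne9* lay between *Ddit4l* and the pair of rare transcripts. In *Htt* +/+ mice the lowest, median and highest levels were 7.18, 9.97 and 12.0 CPM with saline and 8.11, 9.73 and 10.3 CPM with *Htt* ASO, and the 5 control ASO mice had 8.60, 7.45, 8.88, 9.70 and 8.05 CPM. The values of *Htt* Q111/+ mice were 2.28, 3.22 and 3.54 CPM with saline, 2.61, 3.25 and 4.10 CPM with control ASO, and 2.22, 3.07 and 3.54 CPM with *Htt* ASO. The lowest *Htt* +/+ value was 1.75 times the highest *Htt* Q111/+ value, so the genotypes did not overlap here either. The means were 9.26 ± 1.34 CPM (SD, n = 17) and 3.14 ± 0.521 CPM (SD, n = 18). The log2 difference was -1.61 (SE 0.135) with saline, -1.37 (SE 0.140) with control ASO and -1.68 (SE 0.138) with *Htt* ASO. Because the libraries came from whole tissue, fewer cells of one type and less RNA per cell cannot be told apart for any of these genes.

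**Figure D1:**
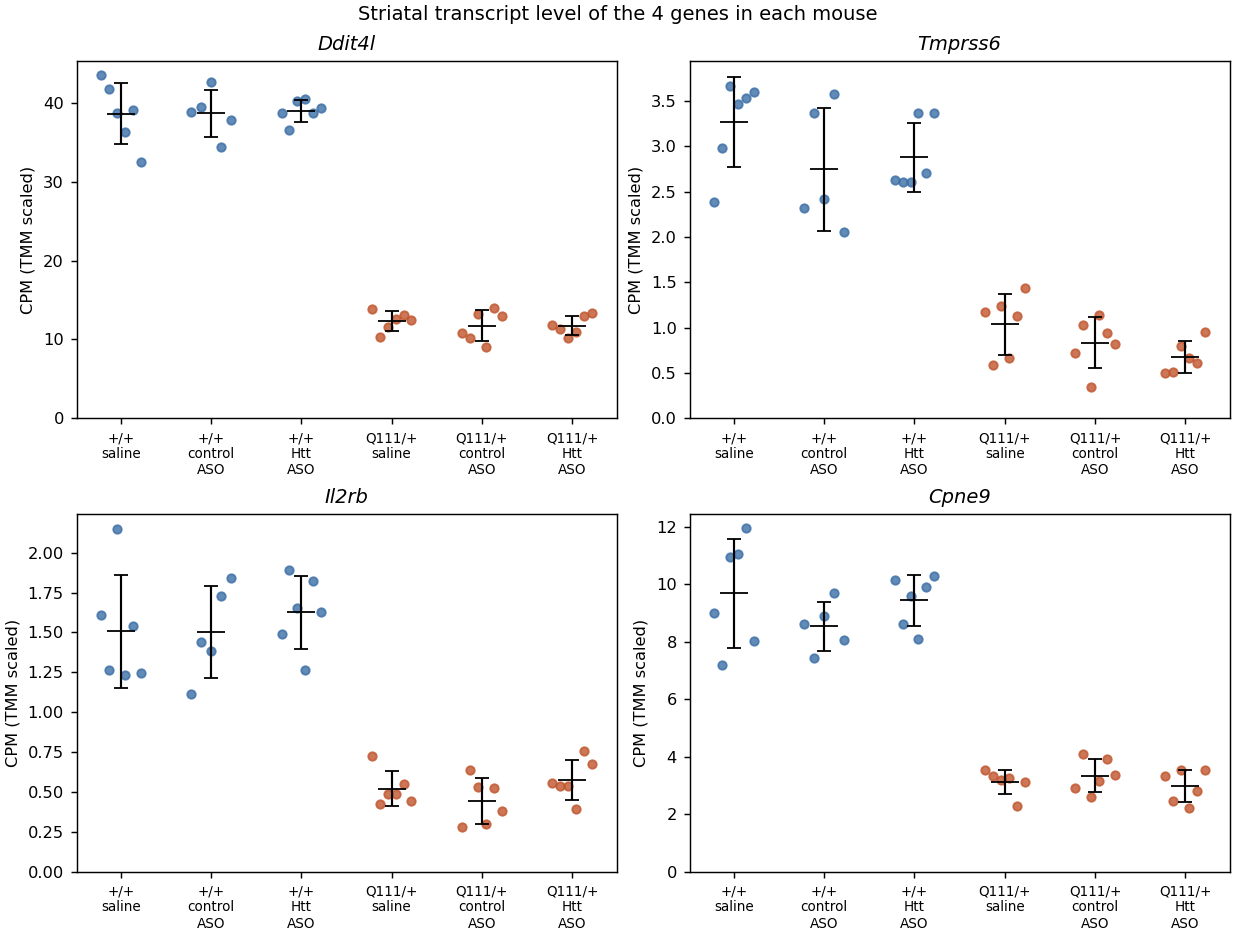
Transcript level (CPM, linear axes starting at 0) of the 4 genes in each of the 35 mice, by genotype and treatment, where points are mice and bars give the group mean ± SD. In each panel every *Htt* Q111/+ point (orange) lies below every *Htt* +/+ point (blue), most widely for *Ddit4l* (lowest *Htt* +/+ mouse 32.5 CPM, highest *Htt* Q111/+ mouse 14.0 CPM).

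Complete separation of the genotypes with the lower level in *Htt* Q111/+ mice was seen in 1.28% of all tested genes, and a reduction past the threshold (adjusted p under 0.05) in each of the 3 treatments in 4.64%. All 4 genes met both descriptions, which the choice of genes fixes. Averaged over treatments, their log2 fold changes were -1.86 for *Tmprss6*, -1.70 for *Ddit4l*, -1.59 for *Il2rb* and -1.55 for *Cpne9*, against a median of 0.0037 over all genes tested. Of the 15090 genes whose mean reached 1 CPM, they held places 3 to 6 when ordered by this value. *Rab8B* (-2.34, SE 1.47) and *Gpx6* (-1.95, SE 0.101) ranked above them, and *Prl* (-1.49, SE 0.915) and *Suhw3* (-1.48, SE 1.40) just below. *Gpx6*, a glutathione peroxidase gene, was thus the one neighbour in rank with an error as small as theirs, whereas *Rab8B*, *Prl* and *Suhw3* differed from zero by less than 2 standard errors.

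Of the lanes, 5 contained both genotypes. As the genotypes did not overlap, the sign of the difference within each lane was fixed by the choice of genes, and its size is given as a description. Across these 5 lanes the log2 difference of the lane means ran from -1.94 to -1.49 for *Ddit4l*, from -2.64 to -1.29 for *Tmprss6*, from -1.76 to -1.23 for *Il2rb* and from -1.84 to -1.33 for *Cpne9*. Without the 6 mice of lane 7, an alternative chosen after seeing the data, the averages were -1.70, -1.78, -1.60 and -1.62 in the same order.

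The levels differed far more between the 4 genes than their fold changes did, which the choice for the largest reductions favours, since it makes the fold changes alike. Per kilobase of annotated exon, *Htt* +/+ striatum held 13.3 CPM per kb of *Ddit4l*, 1.18 of *Cpne9*, 0.886 of *Tmprss6* and 0.361 of *Il2rb*. In *Htt* +/+ mice the within-group coefficient of variation was 7.64% for *Ddit4l*, 14.1% for *Cpne9*, 17.9% for *Tmprss6* and 19.3% for *Il2rb*, and counting error alone at their mean counts would give 2.72%, 5.56%, 9.80% and 13.6%. In *Htt* Q111/+ mice it was 12.8%, 16.9%, 30.9% and 25.7%, against counting errors of 4.83%, 9.41%, 18.2% and 23.4%, so that *Tmprss6* varied more than *Il2rb* there despite its higher counts. Most of the spread of *Il2rb* in *Htt* Q111/+ mice was therefore of the size of its counting error, which limits what its treatment comparisons can show.

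Treatment was compared next, to ask whether peripheral *Htt* ASO moved these striatal transcripts. The choice required a large reduction under *Htt* ASO too, so a gene restored in *Htt* Q111/+ mice was unlikely to be chosen. This limits the contrasts within *Htt* Q111/+ mice and the averages that include them. None of the 4 genes was called in any of 9 treatment contrasts with limma after voom, that is *Htt* ASO against control ASO, *Htt* ASO against saline and control ASO against saline, each averaged over genotype and within each genotype. Of these 36 tests 2 had an unadjusted p under 0.05, both for *Tmprss6*, and edgeR and DESeq2 also called none of them. Over all tested genes 0.935% were called for *Htt* ASO against control ASO and 1.47% for *Htt* ASO against saline. Within one genotype these shares were 0.357% and 0.556% in *Htt* Q111/+ and 0.295% and 0.726% in *Htt* +/+ mice. For control ASO against saline averaged over genotype limma, edgeR and DESeq2 each called 0 genes, and 1359 had an unadjusted p below 0.05 by limma. Ordered by group mean, the 3 *Htt* +/+ groups came first for each of the 4 genes, and within a genotype each group overlapped the next in the order.

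For *Ddit4l* the estimates were close to 0 and the intervals were short. *Htt* ASO against control ASO averaged over genotype gave a log2 difference of 0.0072 (95% confidence interval -0.12 to 0.13, adjusted p = 0.994), and against saline -0.025 (-0.14 to 0.095, adjusted p = 0.947). In *Htt* Q111/+ mice alone *Htt* ASO differed from control ASO by -0.0014 (-0.20 to 0.20, adjusted p = 0.999). A shift of the size of the genotype difference lies far outside these intervals, which in *Htt* Q111/+ mice the choice of genes favours. *Cpne9* was similar, at -0.016 (-0.22 to 0.18, adjusted p = 0.992) against control ASO and -0.055 (-0.25 to 0.14, adjusted p = 0.916) against saline, averaged over genotype. Its estimates against control ASO were -0.17 in *Htt* Q111/+ mice (-0.50 to 0.16, adjusted p = 0.999) and 0.14 in *Htt* +/+ mice (-0.085 to 0.36, adjusted p = 0.991).

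*Tmprss6* gave the lowest unadjusted p-values. *Htt* ASO against saline averaged over genotype gave a log2 difference of -0.37 (95% confidence interval -0.69 to -0.058, unadjusted p = 0.0220, adjusted p = 0.412), and in *Htt* Q111/+ mice alone -0.57 (-1.12 to -0.022, adjusted p = 0.783). Control ASO lay on the same side of saline, at -0.30 averaged over genotype (-0.62 to 0.011, adjusted p = 0.660), and *Htt* ASO against control ASO was -0.071 (-0.41 to 0.26, adjusted p = 0.981). In *Htt* Q111/+ mice the group means were 1.04 CPM with saline, 0.833 CPM with control ASO and 0.673 CPM with *Htt* ASO, and the 3 groups overlapped. None of these differences passed the adjustment. The samples of lane 7 weighed on them: without lane 7, which held 3 of the 6 saline, 2 of the 6 control ASO and 1 of the 6 *Htt* ASO *Htt* Q111/+ mice, control ASO against saline became -0.58 (unadjusted p = 0.0020 and adjusted p = 0.816 by limma; adjusted 0.450 to 0.9998 over all alternatives) and *Htt* ASO against control ASO turned to 0.063. *Htt* ASO against saline became -0.52 there (unadjusted p = 0.0031, adjusted p = 0.176 by limma). A single control ASO *Htt* Q111/+ mouse, the lowest of all mice at 0.345 CPM, also weighed on these differences. Without it control ASO against saline was -0.18 and *Htt* ASO against control ASO -0.19 averaged over genotype, and the latter was -0.48 in *Htt* Q111/+ mice, where it was -0.24 with all mice.

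For *Il2rb* the estimate had the opposite sign. *Htt* ASO against control ASO gave 0.26 averaged over genotype (95% confidence interval -0.018 to 0.54, adjusted p = 0.832) and 0.39 in *Htt* Q111/+ mice (-0.070 to 0.86, adjusted p = 0.908), where the group means were 0.574 and 0.442 CPM. Against saline it was 0.13 (-0.13 to 0.40, adjusted p = 0.821). The intervals for *Il2rb* and *Tmprss6* in *Htt* Q111/+ mice spanned about 1 log2 unit from end to end, and were wider than those of *Ddit4l* and *Cpne9*.

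The interaction of genotype and treatment asked whether the genotype difference itself changed with treatment. It was not called for any of the 4 genes, for *Htt* ASO against control ASO or against saline, and none of these 8 tests had an unadjusted p under 0.05. The genes were chosen for a large reduction under every treatment, which favours a small interaction in advance. These tests therefore cannot show that the genotype difference is independent of treatment. Over all genes limma, edgeR and DESeq2 called 0 for either interaction, while 714 and 972 genes had an unadjusted p below 0.05 by limma. The estimates for *Htt* ASO against control ASO were -0.017 for *Ddit4l* (95% confidence interval -0.26 to 0.23), -0.33 for *Tmprss6* (-1.004 to 0.34), 0.27 for *Il2rb* (-0.29 to 0.82) and -0.31 for *Cpne9* (-0.71 to 0.091).

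**Figure D2:**
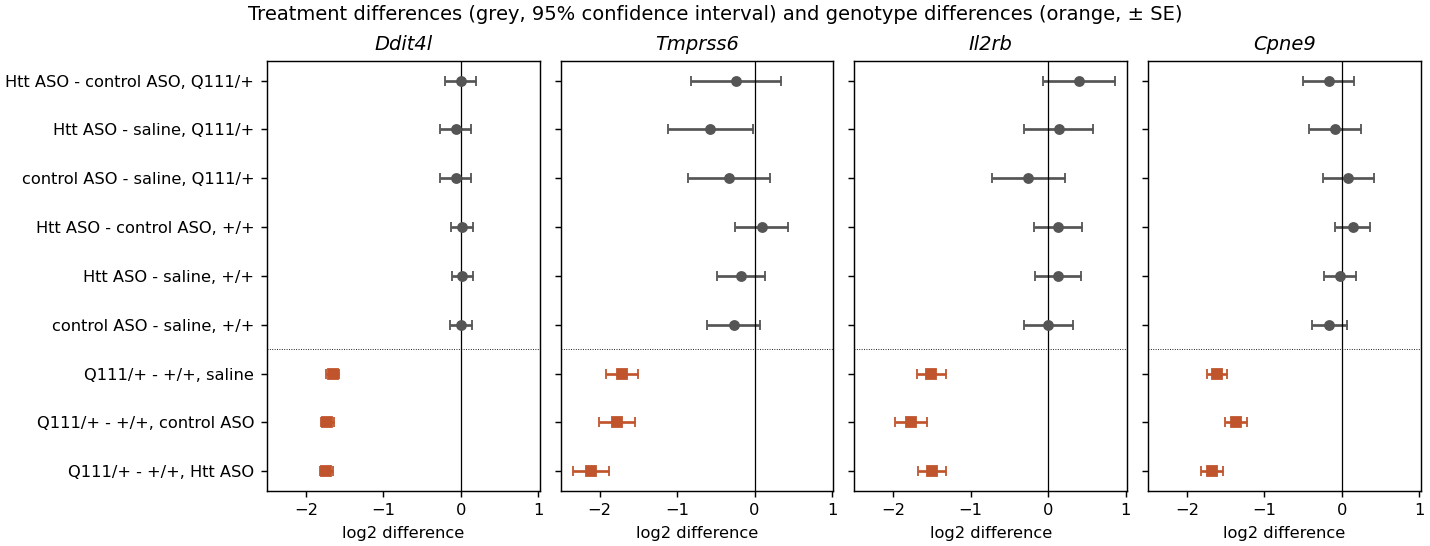
Log2 differences of the 4 genes between treatments within each genotype (grey circles, 95% confidence interval) and between genotypes within each treatment (orange squares, ± SE, the values that chose the genes). The treatment differences lie between -0.57 and 0.39, and the genotype differences between -2.11 and -1.37.

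On the chromosomes, *Tmprss6* and *Il2rb* are next to each other. In the GRCm38 annotation, a later build than the authors' mm9, *Tmprss6* spans chr15:78439667-78468634 and *Il2rb* chr15:78479256-78495271, both on the minus strand with no tested gene between them. *Ddit4l* spans chr3:137621612-137628333 and *Cpne9* chr6:113282307-113305627, both on the plus strand. The 3 nearest tested genes on each side of the 4 genes, 18 in all, were examined for a reduction that extended along the chromosome. Of these 18, 6 fell and 1 rose with genotype and 11 were not called, or 38.9% called against 39.8% of all tested genes. With scaling by library totals 6 fell and 4 rose, and under that scaling 72.1% of all called genes were higher, against 54.7% with TMM. Their median log2 fold change was -0.022. Their range of -0.57 to 0.43 did not reach that of the 4 genes, which the choice of these genes for large reductions favours.

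The genes flanking the *Tmprss6* and *Il2rb* pair moved in opposite directions. *Kctd17*, a potassium channel tetramerisation domain gene next to *Tmprss6*, fell by 0.31 on the log2 scale (SE 0.0374, adjusted p = 3.33e-08). *C1qtnf6*, a C1q and TNF related gene next to *Il2rb*, rose by 0.43 (SE 0.0759, adjusted p = 2.22e-05). The next gene outward on each side, *Mpst* (0.11, adjusted p = 0.0523) and *Sstr3* (0.24, adjusted p = 0.176), was not called. Around *Ddit4l*, *Bank1* (-0.57), *Ppp3ca* (-0.36), the catalytic subunit of calcineurin, *Emcn* (-0.22) and *H2afz* (-0.082) fell, all with adjusted p below the threshold (largest 0.00125). *Emcn*, an endothelial sialomucin, also rose with *Htt* ASO against control ASO by 0.37 (SE 0.0653, adjusted p = 0.000927), a treatment in which *Ddit4l* stood at 0.0072. Around *Cpne9*, *Setd5* fell slightly (-0.091), and the adjoining *Mtmr14* (0.052, adjusted p = 0.0658) and *Brpf1* (-0.034, adjusted p = 0.295) were not called.

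**Figure D3:**
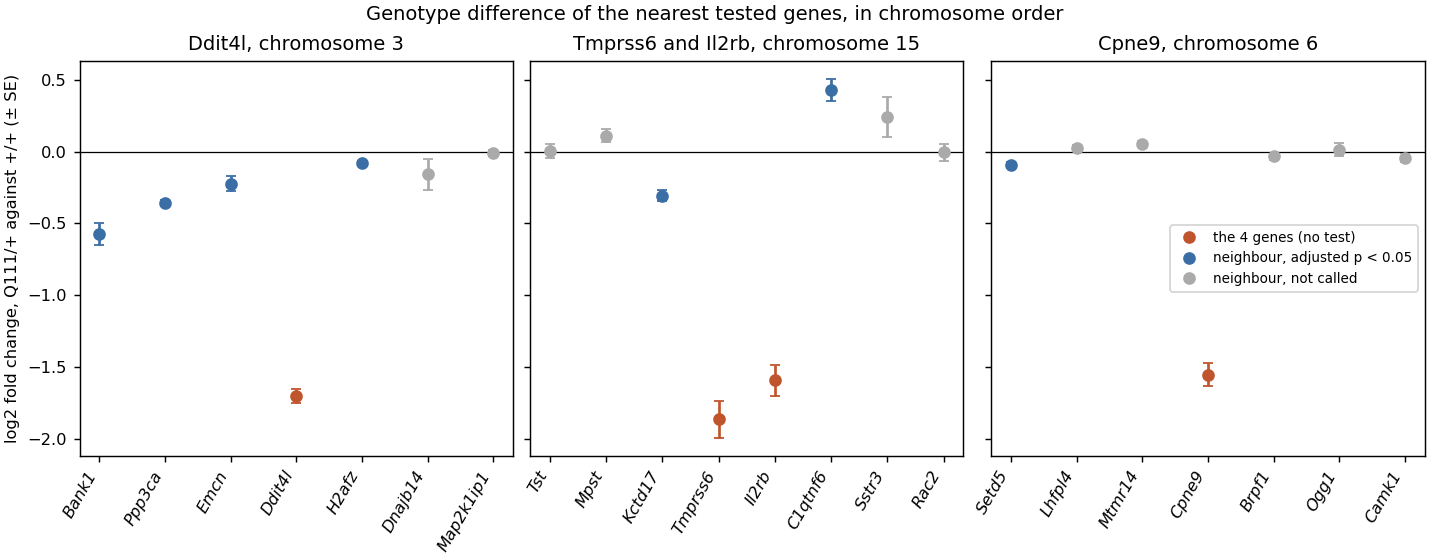
Log2 fold change between genotypes (± SE) of the 4 genes and of the 3 nearest tested genes on each side, in chromosome order. The 4 genes (orange, -1.86 to -1.55), chosen for their large reductions, stand below all of their neighbours (-0.57 to 0.43), of which blue points passed an adjusted p of 0.05 and grey points did not.

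Whether the levels of the 4 genes followed each other from mouse to mouse was examined within each genotype after removing the mean of each treatment group. *Tmprss6* and *Il2rb* showed no such relation, with Pearson's r = -0.0426 (permutation p = 0.885) and Spearman's rho = -0.0343 (permutation p = 0.912) in 17 *Htt* +/+ mice, and r = 0.0264 (permutation p = 0.934) and rho = 0.0031 (permutation p = 0.994) in 18 *Htt* Q111/+ mice. Without the 2 mice farthest from the median, r was -0.168 and 0.137. Among the 12 relations of the 6 gene pairs in 2 genotypes, that of *Ddit4l* and *Il2rb* in *Htt* Q111/+ mice was the strongest, at r = 0.554 (permutation p = 0.0477, adjusted p = 0.556) and rho = 0.589 (permutation p = 0.0322, adjusted p = 0.386), and r = 0.425 without the 2 farthest mice. No relation passed the adjustment over the 12. Lanes held too few mice of one genotype for values within a lane.

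**Figure D4:**
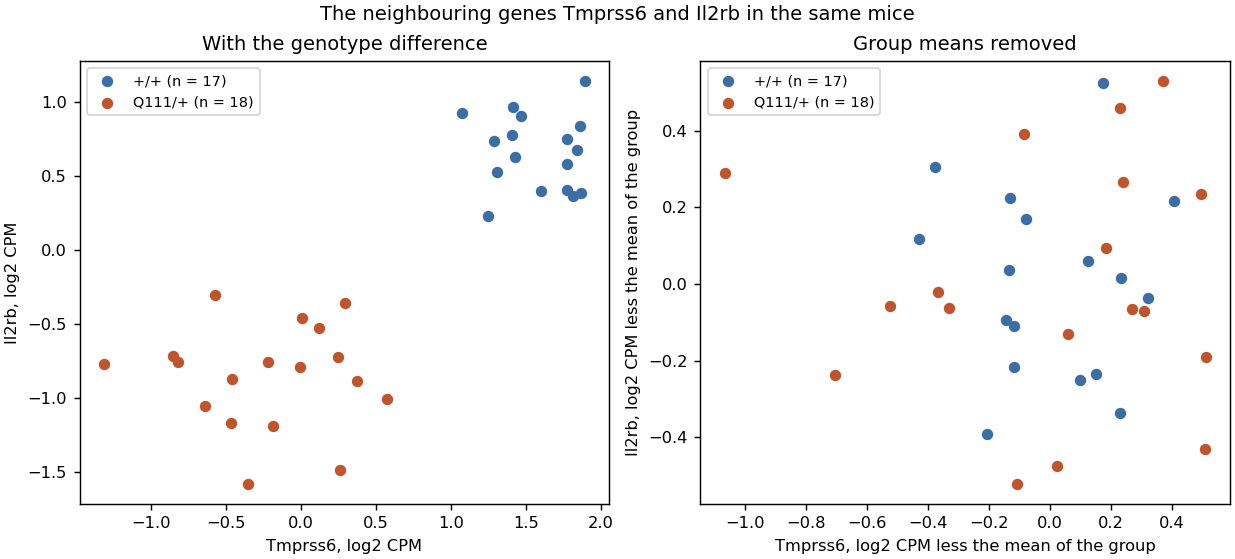
*Il2rb* against *Tmprss6* in log2 CPM in each mouse, as measured (left) and after removing the mean of each group (right), with *Htt* +/+ mice in blue and *Htt* Q111/+ mice in orange. The genotypes form separate clouds on the left, and on the right no relation was detected (r = -0.0426 in *Htt* +/+, 0.0264 in *Htt* Q111/+).

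The genes whose levels over all 35 mice were most like those of the 4 were found by Pearson's r of log2 CPM, a measure that the genotype difference dominates and that the mice share with every gene of that kind. For *Ddit4l* the 5 most alike were *Penk1* (r = 0.983), *8430415E04Rik* (now *Ppp4r4*, 0.982), *Ptprv* (0.981), *Scn4b* (0.977) and *Zfp238* (now *Zbtb18*, 0.976). *Penk1* encodes proenkephalin, a neuropeptide precursor, and *Scn4b* a sodium channel beta subunit. For *Cpne9* they were *Ptprv* and *Scn4b* (both 0.968), *Rhobtb2* (0.967), *Gpr6* (0.966) and *Adora2a* (0.963). *Gpr6* and *Adora2a* both encode G protein-coupled receptors. For *Tmprss6* they were *Gpr6* (0.935), *Myh7* (0.932), *Ptprv* (0.928), *Myo5b* (0.928) and *Lba1* (now *Trank1*, 0.924), and for *Il2rb* *Ankrd35* and *Scn4b* (both 0.951), *Hrk* (0.950), *Rgs14* (0.946) and *Chrna4* (0.943). *Ptprv* was thus in 3 of the 4 sets and *Scn4b* in 3. By Spearman's rho 0, 0, 2 and 2 of the 5 genes were the same for *Ddit4l*, *Cpne9*, *Tmprss6* and *Il2rb*, so that membership of the sets depends on the measure. By rho *Ptprv* stood at place 280 for *Ddit4l*, 66 for *Tmprss6* and 80 for *Cpne9*. *Scn4b* stood at place 156 for *Ddit4l*, 5 for *Il2rb* and 21 for *Cpne9*.

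Once group means were removed, the sets were different and the values lower. The most alike were *Ypel2* (r = 0.756), *Cbx1* (0.742), *Abi3bp* (0.708), *Slc39a2* (0.685) and *Raver2* (0.675) for *Ddit4l*, and *Rasl10a* (0.688), *Nfkbia* (0.629), *Nme4* (0.625), *Fance* (0.619) and *EG434402* (now *Gm5617*, 0.612) for *Tmprss6*. For *Il2rb* they were *Ddn* (0.632), *Srd5a1* (0.616), *C630035N08Rik* (now *Fam163b*, 0.608), *Tmepai* (now *Pmepa1*, 0.602) and *Palld* (0.601), and for *Cpne9* they were *Mgll* (0.787), *Kctd17* (0.777), *Abcb8* (0.740), *Ndufa3* (0.731) and *Tpm2* (0.730). *Kctd17*, which lies beside *Tmprss6* and not beside *Cpne9*, appeared only in the *Cpne9* set. None of the 4 genes was among the 5 most like another in these residual levels.

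The pathways of the 4 products were then examined, beginning with mTORC1. Over all tested genes 18% were called lower and 21.8% higher in *Htt* Q111/+ mice. Of 24 tested genes of the mTORC1 branch, 7 fell, 4 rose and 13 were not called, with a median log2 fold change of 0.014, and with scaling by library totals alone 5 fell and 10 rose. The 3 largest changes were falls, in *Deptor* (an mTOR inhibitor, -0.48, SE 0.111, adjusted p = 0.000619), *Sesn3* (a sestrin, upstream of mTORC1, -0.31, SE 0.118, adjusted p = 0.0321) and *Akt2* (an activating kinase, -0.29, SE 0.0227, adjusted p = 2.46e-12). *Ddit4*, the close relative of *Ddit4l* and the better known mTORC1 inhibitor, stood at 46.5 ± 6.99 CPM in *Htt* +/+ and 43.6 ± 6.81 CPM in *Htt* Q111/+ mice (-0.097, SE 0.0604, adjusted p = 0.210). The kinase itself, *Mtor*, was at 0.036 (adjusted p = 0.292) and *Rheb*, its GTPase activator, at -0.064 (adjusted p = 0.178).

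Among the other 8 copines 1 fell, 2 rose and 5 were not called, with a median of 0.0074. *Cpne2* fell by 0.28 (SE 0.0405, adjusted p = 6.56e-07), *Cpne8* rose by 0.21 (SE 0.0304, adjusted p = 1.14e-06) and *Cpne1* rose by 0.17 (SE 0.0367, adjusted p = 0.000245). *Cpne5*, at 269 CPM the most abundant copine in counts, was at -0.017 (adjusted p = 0.674).

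Of the 14 tested genes around the interleukin-2 and interleukin-15 receptor 3 fell, 4 rose and 7 were not called (median -0.0011). *Il2rg*, the common gamma chain that pairs with *Il2rb*, fell by 0.36 (SE 0.106, adjusted p = 0.00666), *Jak3*, the kinase bound to it, fell by 0.27 (SE 0.0768, adjusted p = 0.0057) and *Lck*, a Src family kinase of T cells, rose by 0.30 (SE 0.0640, adjusted p = 0.000226). The chains that set ligand choice and the ligand gene *Il15* were not called, with *Il15ra* at -0.16, *Il2ra* at -0.073 and *Il15* at 0.025. The other ligand gene, *Il2*, was not analysed here. *Il2rg* was also the 1 gene of this list called for treatment, rising by 0.69 with *Htt* ASO against control ASO (adjusted p = 0.000934), where *Il2rb* stood at 0.26 (adjusted p = 0.832).

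Markers of T and NK cells, in which *Il2rb* is best known, covered a wide range. Of the 14 measured, *Cd3e*, *Cd3d*, *Cd3g*, *Nkg7*, *Klrk1*, *Ncr1*, *Gzma*, *Gzmb* and *Prf1* had at most 4 counts in any mouse, below the *Il2rb* counts of every mouse. *Cd8a* and *Cd2* reached at most 11 and 13 counts, which is above the *Il2rb* count of some *Htt* Q111/+ mice. *Lck* had mean counts of 45.9 in *Htt* +/+ and 58.3 in *Htt* Q111/+ mice, where *Il2rb* had 54.1 and 18.3, and *Ptprc*, which all leukocytes and microglia express, had 216 and 212. Of the 14 markers 4 passed the filter, of which 1 fell, 1 rose and 2 were not called. The one that fell was *Cd4*, from 110.8 ± 9.05 CPM to 75.7 ± 4.39 CPM (-0.54, SE 0.0319, adjusted p = 1.24e-15), and it made up most of the list's sum, which was 103 to 129.8 CPM in *Htt* +/+ mice against 78.2 to 89.9 CPM in *Htt* Q111/+ mice.

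Of 22 tested genes of hepcidin control and iron handling 9 fell, 4 rose and 9 were not called (median -0.090). *Acvr2a*, an activin and BMP receptor, rose by 0.34 (SE 0.0368, adjusted p = 3.51e-09), and the ligands *Bmp6* and *Bmp2* fell by 0.32 (SE 0.0510, adjusted p = 4.91e-06) and 0.27 (SE 0.0606, adjusted p = 0.000451). *Hfe2*, which encodes the substrate hemojuvelin, had at most 8 counts in any mouse and did not pass the filter, and *Hamp2*, a relative of the hepcidin gene, had at most 2. Hepcidin itself, *Hamp*, was not analysed here. *Slc40a1*, the iron exporter ferroportin, rose with *Htt* ASO against control ASO by 0.48 (adjusted p = 1e-07), the 1 call of this list for treatment. Hepatocyte transcripts were near the floor, with *Alb* at 4 counts or fewer and 0 of 4 tested markers called for genotype by limma, with none at an unadjusted p under 0.05 and none called by DESeq2. Their sum was 0.673 to 1.58 CPM in *Htt* +/+ mice against 0.882 to 1.70 CPM in *Htt* Q111/+ mice. One of them, *Cyp2e1*, fell by 0.86 with *Htt* ASO against control ASO (adjusted p = 0.0113), on at most 26.7 counts per mouse.

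*Tmprss6* also belongs to the type II transmembrane serine proteases, of which 7 others were tested. Of these 2 fell, 1 rose and 4 were not called (median -0.26). *Hpn* (hepsin) fell by 0.84 (SE 0.160, adjusted p = 6.72e-05) on at most 28 counts per mouse, *Tmprss9* fell by 0.41 (SE 0.0800, adjusted p = 8.72e-05) and *Tmprss5* rose by 0.49 (SE 0.0830, adjusted p = 1.03e-05). None of the mTORC1, copine and serine protease genes was called for *Htt* ASO against control ASO by limma.

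**Figure D5:**
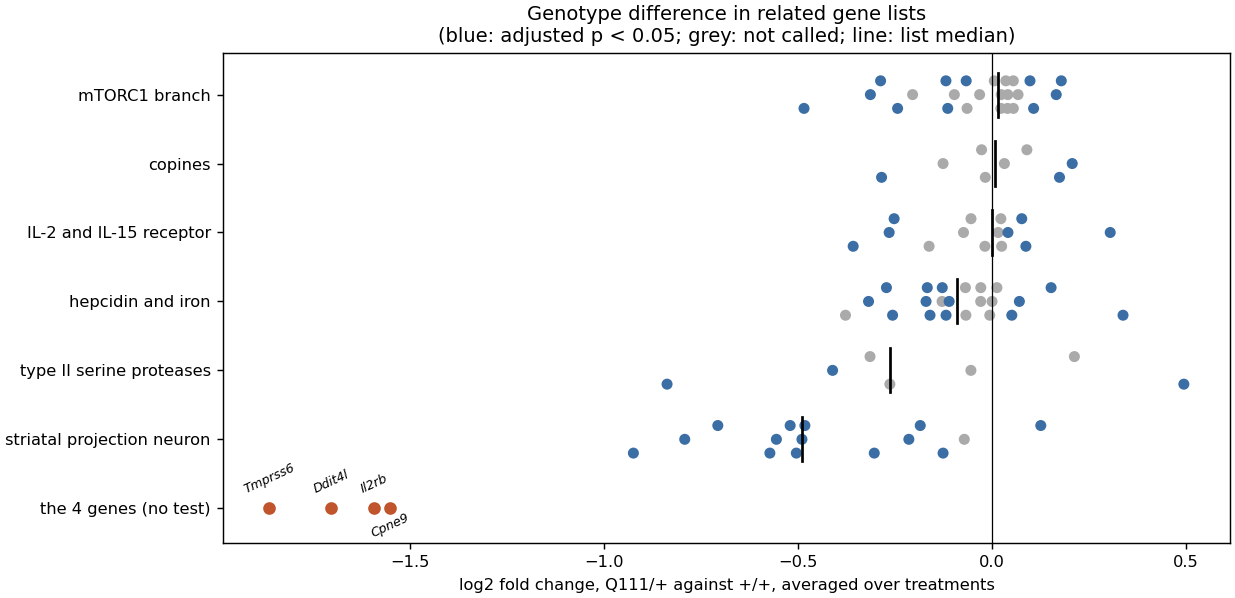
Log2 fold change between genotypes, averaged over treatments, of the tested genes of each list, with blue points past an adjusted p of 0.05, grey points not called and a black line at the list median. The 4 genes (bottom, -1.86 to -1.55), chosen for their large reductions, lie to the left of every gene of the lists, the nearest being the projection neuron gene *Penk1* (-0.92) and the protease gene *Hpn* (-0.84).

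Markers of the striatal projection neuron moved with the 4 genes. Of 15 such markers 13 fell, 1 rose and 1 was not called, with a median of -0.49, and their summed level was 10485 to 12188 CPM in *Htt* +/+ mice against 7825 to 9033 CPM in *Htt* Q111/+ mice. *Penk1* fell most (-0.92, SE 0.0330), followed by *Pde10a* (-0.79, SE 0.0366) and *Adora2a* (-0.71, SE 0.0371), whereas *Tac1* rose (0.13, SE 0.0267) and *Pdyn* was not called (-0.071, adjusted p = 0.118). Each of the 4 genes changed by more than each of these markers, which their choice for large reductions favours. The part of the markers in the reductions was not tested. With *Htt* ASO against control ASO 0 of the 15 markers were called by limma (median 0.031).

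Markers of other cells of the dissected tissue were counted in the same way. Of 10 microglial markers 6 fell (range of all 10 -0.14 to -0.048), but 1 did with scaling by library totals and 8 with DESeq2's own scaling. Of 7 astrocyte markers 3 fell (range of all 7 -0.73 to -0.016), among them the glutamate transporter *Slc1a2* by 0.73 (SE 0.260, adjusted p = 0.0237), and 2 fell with library totals. Of 7 oligodendrocyte markers 3 fell (range of all 7 -0.23 to 0.020) and of 6 endothelial markers 5 fell (range of all 6 -0.24 to -0.15), and 0 rose in these 4 lists. Of 8 tested markers of cortical excitatory neurons 2 fell and 1 rose, their sum being 423 to 679 CPM in *Htt* +/+ mice against 400.2 to 612 CPM in *Htt* Q111/+ mice. Of 7 choroid plexus markers 1 fell, *Otx2* by 0.44 (adjusted p = 0.0487, and not called with library totals), with a median of -0.41 and a range of -0.70 to 0.013. Neither blood marker tested was called (-0.41 and -0.31). The part of these cells in the levels of *Ddit4l*, *Tmprss6*, *Il2rb* and *Cpne9* was not tested.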

How the data were processed

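Striatal RNA of 35 mice was analysed. Per the labels and the methods, TruSeq Stranded mRNA libraries were read as paired ends, aligned by the authors with Bowtie 0.12.9 to the mouse transcriptome (mm9, MGSCv37) and quantified with RSEM 1.1.18. What was deposited is an unscaled table of expected counts (RSEM's estimates, 55.6% of them whole). Reads shared by similar genes are therefore divided by estimate. The label ASO1 was taken as *Htt* ASO, the treatment left for it.

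The counts were analysed in R 4.3.3 with edgeR 4.0.16 (TMM, filterByExpr over 6 groups with minimum counts of 10 and total counts of 15) and limma 3.58.1 (voom, a mean per group). Benjamini-Hochberg adjustment covered all 17639 tested genes, with a threshold of 0.05. Rounded counts were also tested with edgeR (quasi-likelihood) and with DESeq2 1.42.0. On simulated counts for *Htt* ASO against control ASO over 17640 genes, 187 of 200 changed genes were called, with 7 unchanged ones. How often differences as small as the treatment estimates of the 4 genes would be called was not tested. Relations between genes used 100000 permutations, after a prior count of 2 for log2 CPM. Libraries of one group differed beyond sampling noise (chi-square per degree of freedom 3.57 to 16.5 in 85 pairs). Confidence intervals are 95%. Counting errors and floors cover counting only.

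Members and lists were chosen with earlier results of these data known. Named were the 4 genes, their 3 nearest tested neighbours on each side, the 3 largest called changes of each pathway list and list members tied to a product but below the filter, the 5 genes most like each (mean of at least 1 CPM), and the genes next in rank. *Ddit4*, *Mtor*, *Rheb*, *Cpne5*, *Il15*, *Il15ra*, *Il2ra*, *Slc40a1*, *Cyp2e1*, *Cd4* and the markers were named after their values were seen. Gene positions came from GENCODE M21 and promoters from RefSeq. Leaving out each mouse, other scalings, filters, lane and weights were tried.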

Additional observations from a re-analysis of the deposited data

Results flagged for a closer look

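Of 24 checks, for 4 genes in 6 groups, 1 sample stood apart from its group. One saline *Htt* Q111/+ mouse had a *Cpne9* level of 2.28 CPM, where the other 5 lay between 3.13 and 3.54 CPM (Dixon's test at the 95% level). Chance marks about 1 in 20 groups in this way. Leaving mice out one at a time, this one included, kept the *Cpne9* genotype difference between -1.59 and -1.53.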

How the results depend on the processing

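The 16 treatment results (4 genes by 4 contrasts) were recomputed under 720 alternatives, of which 0 were called and 41 changed sign. *Ddit4l* changed sign for *Htt* ASO against control ASO in *Htt* Q111/+ mice with library totals (0.018), with lane as a covariate (0.016), without the mouse sampled from the left hemistriatum (0.00036) and with only the groups compared (0.0026). With sample quality weights its averaged values were -0.0057 for *Htt* ASO against control ASO, 0.0026 for *Htt* ASO against saline and 0.0083 for control ASO against saline. With lane as a covariate the averaged values of *Cpne9* were 0.0096, 0.027 and 0.018 in that order. Without lane 7, added after seeing the data, *Htt* ASO against control ASO was -0.0049 for *Ddit4l* and 0.063 for *Tmprss6* averaged over genotype and 0.034 for *Tmprss6* in *Htt* Q111/+ mice, and control ASO against saline was 0.0012 for *Cpne9*. Leaving out 1 mouse at a time, *Htt* ASO against control ASO ran from -0.051 to 0.024 for *Cpne9* and from -0.026 to 0.035 for *Ddit4l*, or from -0.068 to 0.055 for *Ddit4l* in *Htt* Q111/+ mice, and control ASO against saline from -0.060 to 0.0016 for *Ddit4l*. For *Tmprss6* *Htt* ASO against control ASO ran from -0.19 to -0.019 averaged over genotype and from -0.48 to -0.14 in *Htt* Q111/+ mice, and control ASO against saline from -0.38 to -0.18. The cause of these changes was not tested.

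The genotype differences of the 4 genes moved by less than the spread between mice under every alternative run. With the 5 nearest tested genes on each side, 11 of 30 neighbours were called, or 36.7%, with 8 lower and 3 higher. Genes called for genotype numbered 5759 without lane 7 to 8087 with library totals and 6767 to 7088 without 1 mouse. The share of called genes that were higher in *Htt* Q111/+ mice was 54.7% with TMM and 72.1% with library totals, a median shift of 0.039. *Il2rb* rested on as few as 10 counts per mouse, which limits its comparisons. Which of the 5 most alike genes recurred by Spearman's rho ranged from 0 to 4. No paired analysis was possible because the labels give no replicate numbers, and the numbers used here follow accession order only.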
